A study of Mus musculus with 12 samples.

Results

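The 10 genes described here encode junction proteins, receptors and a secreted ligand of endothelial cells, the cells that line blood vessels: *Cdh5*, *Pecam1*, *Esam*, *Kdr*, *Flt1*, *Tek*, *Tie1*, *Angpt2*, *Emcn* and *Eng*. They were taken by gene symbol from the 55471 genes of each table, with earlier results of these data known, and all 10 were found. RNA-seq had been run on mouse J1 embryonic stem cells (ESCs) of strain 129S4/SvJae, in which *Snap29*, a SNARE protein of membrane fusion, was knocked out (KO) with CRISPR/Cas9 aimed at exon 2 of the gene. KO and wild-type (WT) cells were compared as differentiated cells (day 14) and as undifferentiated ESCs (day 0), with 3 libraries in each of the 4 groups. Day 14 cells of both genotypes had spent 3 days in hanging drops without leukemia inhibitory factor (LIF) and then 11 days on plates, and day 0 ESCs of both genotypes were grown with LIF on gelatin. The study names 1 KO clone for its transcriptomes, and does not say which clone gave the day 14 libraries. It calls the replicates biological without saying what was kept separate, so the p-values measure the spread between these libraries and not the spread between clones.

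VE-cadherin, the product of *Cdh5*, joins neighbouring endothelial cells at adherens junctions, and the immunoglobulin-type proteins PECAM1 and ESAM sit at the same cell borders. *Kdr* and *Flt1* encode receptors for vascular endothelial growth factor (VEGF): KDR carries most of the growth signal, while FLT1 binds VEGF tightly and can act as a decoy. *Tek* (Tie2) is the receptor for angiopoietins, *Tie1* is its partner, *Angpt2* encodes an angiopoietin that can block or activate it, *Eng* is a co-receptor for bone morphogenetic and transforming growth factors, and *Emcn* encodes a sialomucin of capillary and venous endothelium. *Pecam1* is also known as a surface protein of mouse ESCs.

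The labels were first checked against *Snap29*. It had 2.31, 1.87 and 1.88 FPKM (a fragment count scaled by gene length and library size) in KO cells at day 14, against 9.22, 9.88 and 8.09 FPKM in WT cells. At day 0 it had 0.611, 0.415 and 0.657 FPKM in KO ESCs and 5.87, 6.59 and 5.51 FPKM in WT ESCs. *Atrx*, a chromatin remodeller outside the targeted locus, stood at 1.02% of the WT mean in KO cells at day 14 and at 1.23% at day 0, so no difference between KO and WT can be assigned to *Snap29* alone. Libraries held 16638790 to 19226488 fragments assigned to genes. WT replicate 3 of day 14 stood apart from the other WT libraries: on the first principal component (41.6% of the variance over day 14 libraries) it lay at -3.98, against -52.7 and -70.8 for the other WT libraries and 26.2 to 57.5 for KO. It was the lowest of the 3 WT libraries for 7 of the 10 genes and the highest for the other 3, so results at day 14 are also given without it.

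Start sites of 6 of the 10 genes (*Kdr*, *Flt1*, *Tek*, *Tie1*, *Emcn* and *Eng*) were matched in RefSeq (GRCm38.p6, the same assembly as mm10). Below are 3 windows that run from 250 bases before to 50 bases after the start: the VEGF receptor pair *Flt1* and *Kdr*, which were both higher at day 14, and *Tek*, which was not. Capitals mark the letters AGGAAG or CGGAAG, core letters bound by ETS factors, or AGATAA, core letters bound by GATA factors, on either strand. The ETS cores differ only in their first letter, and none of the marked sites overlap.
*Flt1*, chr5:147725962-147726261, minus strand: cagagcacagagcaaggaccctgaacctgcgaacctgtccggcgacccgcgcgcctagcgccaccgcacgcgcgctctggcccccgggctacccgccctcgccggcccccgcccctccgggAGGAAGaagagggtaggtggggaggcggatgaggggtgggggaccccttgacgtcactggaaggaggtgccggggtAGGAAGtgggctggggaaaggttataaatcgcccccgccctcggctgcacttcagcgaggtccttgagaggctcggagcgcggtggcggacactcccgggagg
*Kdr*, chr5:75978406-75978705, minus strand: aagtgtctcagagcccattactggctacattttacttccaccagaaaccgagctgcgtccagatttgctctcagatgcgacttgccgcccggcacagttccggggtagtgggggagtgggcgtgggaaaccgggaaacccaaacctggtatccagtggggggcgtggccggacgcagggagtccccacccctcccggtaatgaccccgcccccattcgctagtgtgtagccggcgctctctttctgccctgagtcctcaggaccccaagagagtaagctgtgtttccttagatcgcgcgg
*Tek*, chr4:94739039-94739338, plus strand: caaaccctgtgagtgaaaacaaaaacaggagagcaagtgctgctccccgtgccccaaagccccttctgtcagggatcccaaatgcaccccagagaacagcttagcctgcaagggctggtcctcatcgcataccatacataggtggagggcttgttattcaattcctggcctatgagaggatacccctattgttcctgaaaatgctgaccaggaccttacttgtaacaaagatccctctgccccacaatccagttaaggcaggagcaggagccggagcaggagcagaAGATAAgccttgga
The *Flt1* window holds AGGAAG at 2 places, the *Kdr* window holds none of the 3 words, and the *Tek* window holds AGATAA at 1 place. Of the windows not shown, those of *Eng* and *Emcn* hold AGGAAG at 2 places each. That of *Tie1* holds AGGAAG at 2 places and CGGAAG at 1. *Eng* and *Tie1* did not pass the test over days in either genotype. Over 32851 mouse promoters of the same length, AGGAAG occurs in 35.4%, CGGAAG in 16.9% and AGATAA in 11.2%. A word in a window is a description of the letters and not evidence of a bound factor.

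The 10 genes did not share one level. In KO cells at day 14, *Pecam1* was highest with 10.9 ± 1.47 FPKM (SD, n = 3, as for all means here), followed by *Eng* with 5.04 ± 0.712 FPKM, and these were the only genes above 2 FPKM. *Flt1* (1.82 ± 0.186 FPKM) and *Tek* (1.68 ± 0.0797 FPKM) had overlapping ranges, as had *Esam* (1.24 ± 0.185 FPKM) and *Cdh5* (0.850 ± 0.249 FPKM). *Kdr* (0.339 ± 0.0415 FPKM) overlapped with *Angpt2* (0.302 ± 0.0952 FPKM), and *Tie1* (0.115 ± 0.0615 FPKM) overlapped with *Emcn* (0.0484 ± 0.0262 FPKM) at the bottom.

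In WT cells at day 14 the order was led by *Cdh5* with 21.0 ± 12.9 FPKM, but its range overlapped with that of *Pecam1* (13.0 ± 3.18 FPKM). *Pecam1* in turn overlapped with *Eng* (6.91 ± 2.79 FPKM), *Eng* with *Esam* (4.39 ± 2.07 FPKM) and *Esam* with *Flt1* (4.23 ± 0.558 FPKM). Below a gap stood *Tek* (1.16 ± 0.347 FPKM), *Angpt2* (1.10 ± 0.252 FPKM) and *Kdr* (0.824 ± 0.255 FPKM), each within the range of its neighbour, and then *Tie1* (0.145 ± 0.0541 FPKM) and *Emcn* (0.139 ± 0.0978 FPKM). *Cdh5* was thus sixth of 10 in KO and first in WT.

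At day 0 both genotypes had the same top of the order. *Pecam1*, *Eng*, *Tek* and *Esam* led in KO ESCs (11.4 ± 0.193, 5.06 ± 0.523, 1.43 ± 0.260 and 0.636 ± 0.0234 FPKM) and in WT ESCs (13.7 ± 0.331, 5.38 ± 0.378, 2.38 ± 0.293 and 0.473 ± 0.206 FPKM), and neighbours among these 4 did not overlap. *Angpt2* followed with 0.272 ± 0.184 FPKM in KO and 0.306 ± 0.148 FPKM in WT. *Tie1*, *Kdr*, *Flt1* and *Cdh5* averaged at most 0.0810 FPKM in KO, against 0.109 FPKM in WT, and *Emcn* had no fragment in any day 0 library.

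**Figure D1:**
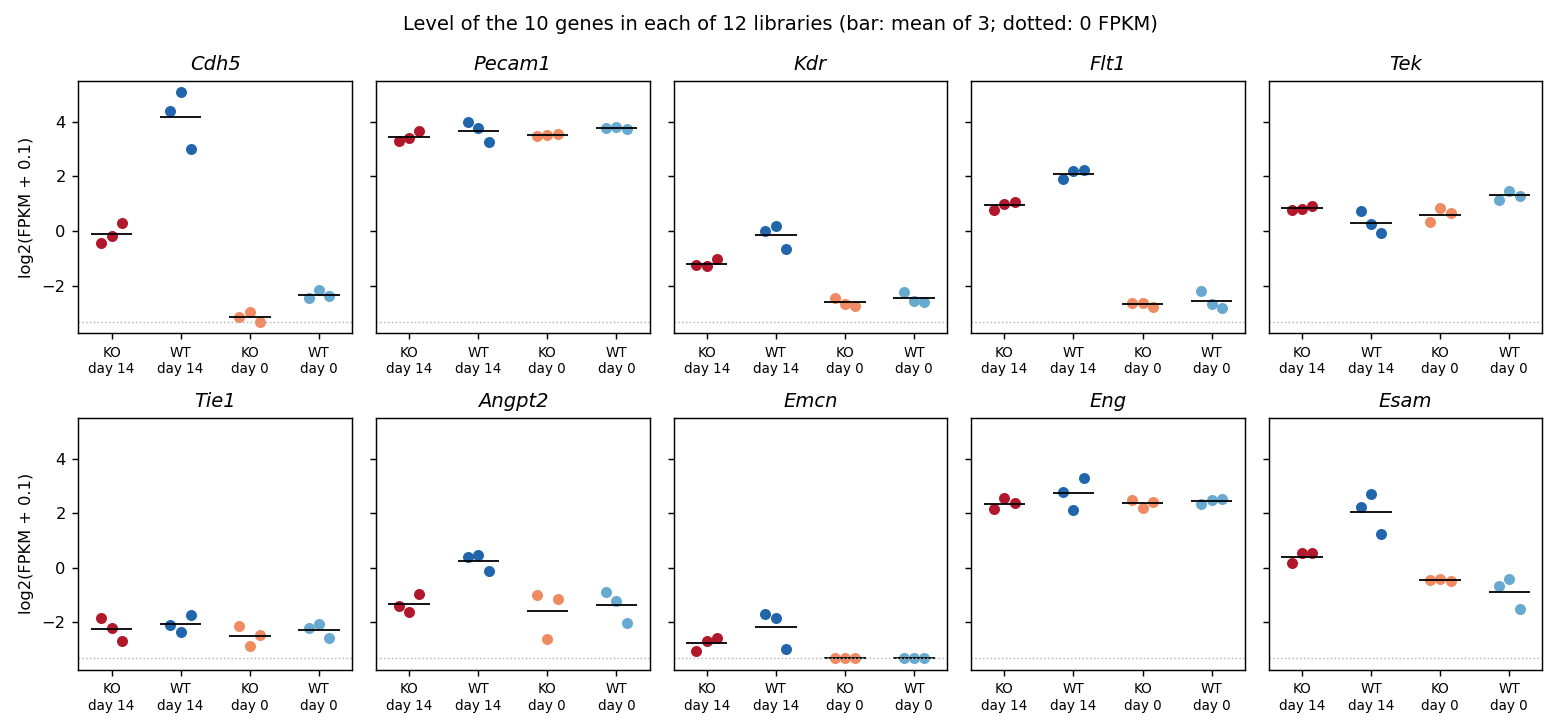
Level of each of the 10 genes as log2(FPKM + 0.1) in every library, with a bar at the mean of the 3 libraries and a dotted line at 0 FPKM. *Cdh5* spans the widest range, 0.636 to 1.12 FPKM in KO and 7.95 to 33.7 FPKM in WT at day 14, while *Pecam1* and *Eng* stay near 1 level in all 4 groups.

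The levels at day 14 were mixed for genes that endothelial cells are known to carry. *Pecam1* and *Eng*, the highest genes in KO, were as high in ESCs, and *Kdr*, *Tie1* and *Emcn* did not exceed 1.03 FPKM in any of the 12 libraries. Of 23 other endothelial surface genes tested over days in KO, 10 were higher and 5 lower at day 14, and of 22 in WT, 13 and 5. Over all tested genes, 33.5% were higher and 29.8% lower in KO, and 29.0% and 26.4% in WT. Some of the higher surface genes, such as *Cav1* and *Gja5*, reached the level for the test only through their day 14 libraries. The counts of higher genes are therefore descriptions and no support. Levels of the surface genes ran wide. *Podxl* averaged 49.0 FPKM in KO and 49.7 FPKM in WT at day 14, and *Adgrf5* 0.884 FPKM in KO, against 7.78 FPKM in WT, while *Clec14a*, *Adgrl4* and *Lyve1* reached at most 0.0112, 0.0179 and 0.0704 FPKM in KO and 0.0597, 0.0614 and 0.0561 FPKM in WT. Of 8 pluripotency genes, 7 were lower at day 14 than at day 0 in both genotypes, such as *Pou5f1* with 146 FPKM at day 14 and 458 FPKM at day 0 in KO, and 107 FPKM at day 14 and 541 FPKM at day 0 in WT. The other one, *Dppa5a*, averaged 2565 FPKM in KO and 1903 FPKM in WT at day 14. The genes are therefore called here by their list and not by a cell type. In bulk RNA, fewer cells of a type and less RNA per cell cannot be told apart.

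At day 14, KO cells had less *Cdh5*, *Flt1* and *Angpt2* mRNA than WT cells, and no gene of the 10 was higher past the test. The test was limma on log2(FPKM + 0.1), with Benjamini-Hochberg adjustment across 20506 genes. Of 9 of the 10 genes that could be tested, 3 were lower and 0 higher, where 0.883% of all tested genes (181) were lower and 1.45% (298) higher. With values rescaled to a fixed sum per library (TPM), 231 genes were lower and 160 higher, and the same 3 of the 10 were lower. All 3 KO libraries lay below all 3 WT libraries for 5 genes (*Cdh5*, *Esam*, *Flt1*, *Kdr* and *Angpt2*), as they did for 11.4% of all tested genes, and above them for *Tek* alone, as they did for 15.1%. The median change over the 9 genes was -1.04, against 0.03 over all tested genes. The smallest p that an exact permutation of 3 and 3 libraries can give is 0.1, and the calls rest on the spread that limma shares among genes.

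Among the junction genes *Cdh5* differed most. It had 0.636, 0.790 and 1.12 FPKM in KO cells (52, 65 and 88 fragments), against 21.3, 33.7 and 7.95 FPKM in WT cells (1638, 2962 and 668 fragments). The highest KO library was far below the lowest WT library, yet the WT libraries themselves differed 4.24-fold. KO cells averaged 4.05% of the WT level, a log2 change of -4.28 (SE 0.50, 95% interval -5.47 to -3.08, limma adjusted p = 0.0154). *Esam*, a tight junction protein, had 1.02, 1.34 and 1.35 FPKM in KO and 4.57, 6.36 and 2.23 FPKM in WT. Its groups did not overlap either, but the WT spread was wide and its log2 change of -1.64 (SE 0.37) did not pass the test (limma adjusted p = 0.0738). *Pecam1* had 9.67, 10.6 and 12.5 FPKM in KO and 15.8, 13.7 and 9.55 FPKM in WT, with overlapping groups and a log2 change of -0.23 (95% interval -0.70 to 0.25, limma adjusted p = 0.553). So within the junction genes a 24.7-fold lower mean of *Cdh5* stood beside a 1.19-fold lower mean of *Pecam1* that was not past the test.

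Of the VEGF receptors, *Flt1* had 1.62, 1.87 and 1.98 FPKM in KO cells, against 3.60, 4.44 and 4.66 FPKM in WT cells. Both groups were tight, and KO cells averaged 43.0% of the WT level, a log2 change of -1.17 (SE 0.16, limma adjusted p = 0.0227). *Kdr*, the main signalling receptor, had 0.319, 0.311 and 0.386 FPKM in KO (55 to 65 fragments) and 0.907, 1.03 and 0.538 FPKM in WT (97 to 194 fragments). Its groups did not overlap, and the log2 change of -1.04 (95% interval -1.73 to -0.35) did not pass the test (limma adjusted p = 0.117). *Flt1* is 1 of the 3 genes for which WT replicate 3 was the highest WT library and not the lowest.

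The angiopoietin system did not move as one. *Angpt2*, the ligand, had 0.278, 0.221 and 0.407 FPKM in KO (16 to 28 fragments), against 1.23, 1.27 and 0.814 FPKM in WT (60 to 98 fragments). The groups did not overlap, and the log2 change was -1.58 (SE 0.29, limma adjusted p = 0.0468). Its receptor *Tek* lay the other way, with 1.61, 1.65 and 1.77 FPKM in KO and 1.54, 1.09 and 0.860 FPKM in WT. The groups did not overlap, but the interval of the log2 change, 0.53, ran from -0.03 to 1.08 (limma adjusted p = 0.262). *Tie1* had 0.178, 0.114 and 0.0546 FPKM in KO and 0.133, 0.0973 and 0.204 FPKM in WT. At 5 to 17 fragments in KO and 10 to 20 in WT, its log2 change had a 95% interval of -1.06 to 0.65, and a difference within it was not detectable at this depth.

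*Eng*, the co-receptor, had 4.33, 5.75 and 5.05 FPKM in KO and 6.73, 4.22 and 9.78 FPKM in WT. The KO libraries lay within the WT range, and the log2 change of -0.38 (95% interval -1.07 to 0.32) did not pass the test (limma adjusted p = 0.501). *Emcn* had 0.0190, 0.0566 and 0.0695 FPKM in KO and 0.212, 0.177 and 0.0278 FPKM in WT. That is 15 fragments in all KO libraries and 44 in all WT libraries, 3 of them in replicate 3, and the gene was below the level needed for the test.

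The 3 calls at day 14 were sensitive to single libraries. Without any 1 of the KO libraries, or without WT replicate 1, none of the 10 genes passed the test, and without WT replicate 2 only *Cdh5* did (limma adjusted p = 0.0432). Without WT replicate 3, 5 genes passed: *Cdh5* (log2 change -4.86), *Flt1* (-1.10), *Angpt2* (-1.77), *Kdr* (-1.28, limma adjusted p = 0.0285) and *Esam* (-2.05, limma adjusted p = 0.00780). The direction of these 5 changes was negative in every fit that left 1 library out. Calls over all genes moved as well. In these fits 28 to 1025 genes were lower and 16 to 1804 higher, against 181 and 298 with all libraries.

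**Figure D2:**
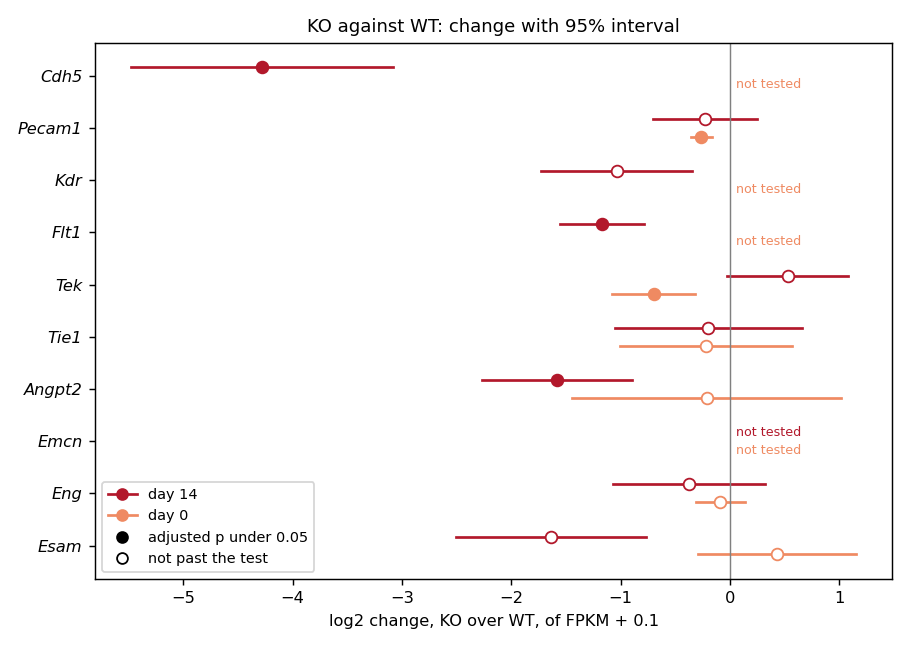
Log2 change of KO over WT for each of the 10 genes at day 14 and at day 0, with 95% intervals from limma; filled points had an adjusted p under 0.05. *Cdh5*, *Flt1* and *Angpt2* are filled at day 14, *Pecam1* and *Tek* at day 0, and genes below the level needed are marked as not tested.

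Markers of another cell type fell in the same KO libraries. Trophoblast, the outer lineage of the placenta, is known to make *Flt1*. Of 14 trophoblast markers tested, 7 were lower in KO at day 14 and 0 higher, with a median log2 change of -3.16. Over all tested genes, 0.883% were lower and 1.45% higher. *Tpbpa* and *Ctsq* (mean 0.0715 FPKM in KO) reached the level for the test only through their WT libraries, so their calls are descriptions. The summed level of the 14 markers was 276 to 298 FPKM in KO and 398 to 649 FPKM in WT. *Ctsj*, a placental cathepsin, had 0.216, 0.251 and 0.301 FPKM in KO and 66.5, 123 and 47.9 FPKM in WT (log2 change -7.69, limma adjusted p = 0.000859). *Tpbpa*, a spongiotrophoblast marker, had 0.0241, 0 and 0 FPKM in KO and 11.0, 36.5 and 6.78 FPKM in WT. It was highest in WT replicate 2 and lowest in replicate 3, as *Cdh5* and *Angpt2* were. *Flt1* had another order, highest in WT replicate 3 and lowest in replicate 1. Several markers did not follow *Ctsj* and *Tpbpa*. *Hand1*, also a mesoderm gene, had 133 to 154 FPKM in KO and 118 to 160 FPKM in WT. *Krt7* averaged 92.0 FPKM in KO and 65.6 FPKM in WT, without overlap (log2 change 0.50, limma adjusted p = 0.118). *Plac1* and *Gcm1* overlapped (-0.15 and 0.21), while *Prl3b1*, *Ascl2* and *Tfap2c* lay lower without passing. *Hand1* (147 FPKM) and *Krt7* made up most of the summed level in KO, which averaged 289 FPKM. The part of the trophoblast markers in the lower levels of *Cdh5*, *Flt1* and *Angpt2* was not tested.

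**Figure D3:**
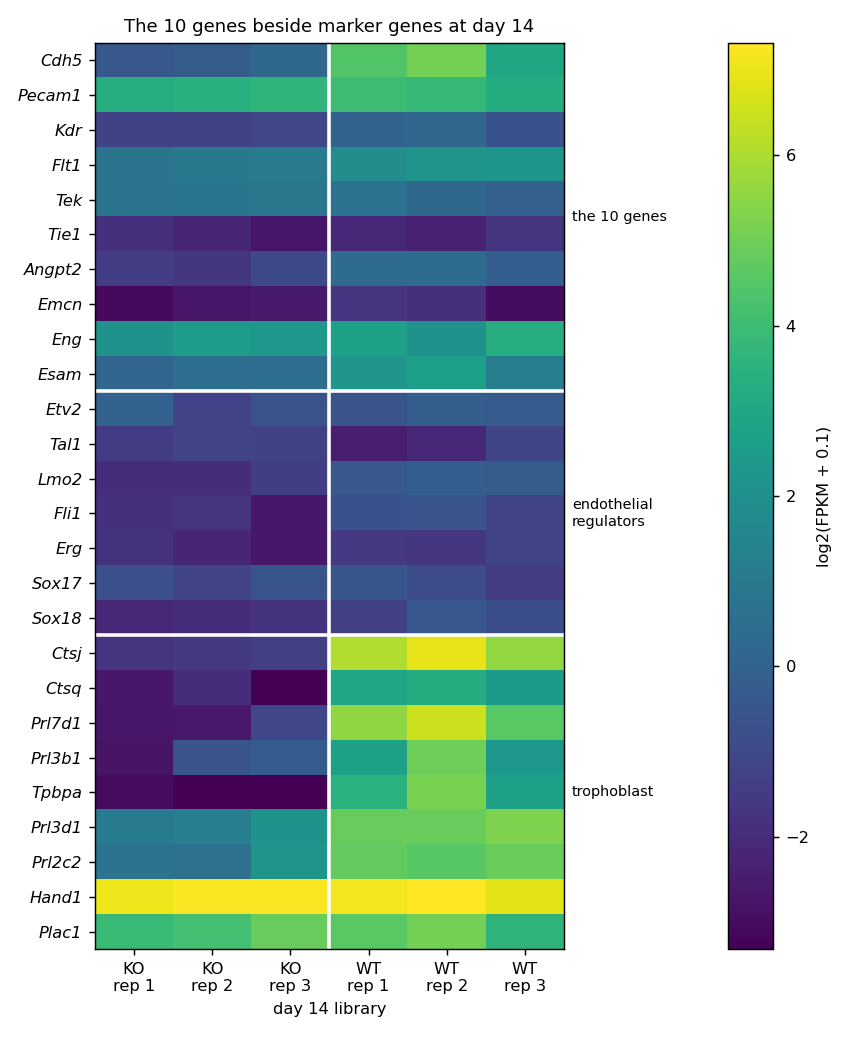
Levels as log2(FPKM + 0.1) in each day 14 library of the 10 genes, 7 endothelial regulators and 9 trophoblast markers, KO on the left. In WT replicate 3, *Cdh5*, *Ctsj*, *Prl7d1* and *Tpbpa* are lower than in the other WT libraries and still above all KO libraries.

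None of 10 blood genes tested passed the test, and their median log2 change was 0.04. The sum of the blood list was 73.3 to 83.1 FPKM in KO and 40.5 to 63.2 FPKM in WT. Most of it was *Cd68* (56.1 FPKM in KO and 31.1 FPKM in WT), followed by *Csf1r* (15.8 and 10.5 FPKM). *Klf1* lay the other way, with 0.137 FPKM in KO and 0.443 FPKM in WT. Of 6 mural genes tested, whose median log2 change was 0.19, none was higher and *Rgs5*, a pericyte marker, was lower (0.113 FPKM in KO, against 2.56 FPKM in WT, log2 change -3.34, limma adjusted p = 0.0470). The sum of the mural genes was 168 to 255 FPKM in KO and 66.7 to 159 FPKM in WT, most of it *Acta2*, smooth muscle actin (log2 change 1.53, limma adjusted p = 0.106). Of 6 fibroblast genes, whose median log2 change was -1.40, *Col1a1* was lower (43.0 FPKM in KO, against 70.7 FPKM in WT, log2 change -0.72, limma adjusted p = 0.0348). Beside these counts, 0.883% of all tested genes were lower and 1.45% higher. The part of the blood, mural and fibroblast genes in the results on the 10 genes was not tested.

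Counts for the lists around the 10 genes follow, where 0.883% of all tested genes were lower and 1.45% higher in KO at day 14. Of 24 other endothelial surface genes tested, 1 was higher and 1 lower, with a median log2 change of -0.12. *Plxnd1*, a semaphorin receptor, had 0.535, 0.581 and 0.676 FPKM in KO and 1.85, 2.34 and 1.47 FPKM in WT (log2 change -1.49, limma adjusted p = 0.0309). *Mcam*, an adhesion molecule shared by endothelial and mural cells, had 23.8, 21.1 and 26.7 FPKM in KO and 12.6, 11.7 and 14.5 FPKM in WT (log2 change 0.88, limma adjusted p = 0.0268). *Podxl*, the most abundant gene of this list, had a similar mean in both, given above.

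None of 21 endothelial transcription factors tested passed the test (median log2 change -0.28). *Fli1* and *Erg*, ETS factors of the endothelial programme, averaged 0.148 and 0.124 FPKM in KO and 0.489 and 0.268 FPKM in WT (limma adjusted p = 0.118 and 0.277). Their groups did not overlap. *Lmo2*, a partner of blood and vessel factors, averaged 0.209 FPKM in KO and 0.737 FPKM in WT (limma adjusted p = 0.0508). All 3 rested on few fragments, 4 to 14 in a KO library and 15 to 43 in a WT library. All 3 KO libraries lay below all 3 WT libraries for *Fli1*, *Erg* and *Lmo2*. The same held for *Sox18* (log2 change -1.12), *Hey1* (-1.33) and *Lyl1* (-0.66), and for 11.4% of all tested genes. *Mef2c* (log2 change 0.66, without overlap, as for 15.1% of all tested genes), *Tal1* (0.57), *Foxo1* (0.15) and *Sox17* (0.09) lay the other way. The most abundant factors, *Klf2* (35.5 FPKM in KO and 39.8 FPKM in WT), *Ets2* and *Elk3*, had log2 changes of -0.14, -0.12 and -0.36, with overlapping groups.

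Of 19 ligands, co-receptors and vessel signalling genes tested, *Nrp1* alone was lower and none higher (median log2 change -0.41). NRP1 is a co-receptor that binds VEGF together with KDR, and it had 2.53, 2.10 and 2.73 FPKM in KO, against 4.41, 4.28 and 4.67 FPKM in WT (log2 change -0.84, limma adjusted p = 0.0399). *Vegfa*, the main ligand of *Kdr* and *Flt1*, had 33.8, 33.3 and 31.6 FPKM in KO and 29.2, 25.3 and 40.2 FPKM in WT, so the ligand was abundant in both while its receptors were low. *Dll4*, a Notch ligand of sprouting vessels, averaged 0.188 FPKM in KO and 0.875 FPKM in WT (log2 change -1.78, limma adjusted p = 0.0531).

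Of 12 genes tested in the pathway of *Eng*, 0 were higher and 0 lower (median log2 change -0.22). *Acvrl1*, the receptor that ENG assists, averaged 0.792 FPKM in KO and 1.61 FPKM in WT, with overlapping groups. Of 13 junction partners, *Jam2* was higher and none lower (median log2 change 0.10). JAM2 is a junctional adhesion molecule, and it had 20.0, 22.2 and 20.8 FPKM in KO and 10.7, 8.01 and 8.16 FPKM in WT (log2 change 1.23, limma adjusted p = 0.0127). *Ctnnb1*, the catenin that anchors VE-cadherin, averaged 158 FPKM in KO and 165 FPKM in WT (log2 change -0.07).

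**Figure D4:**
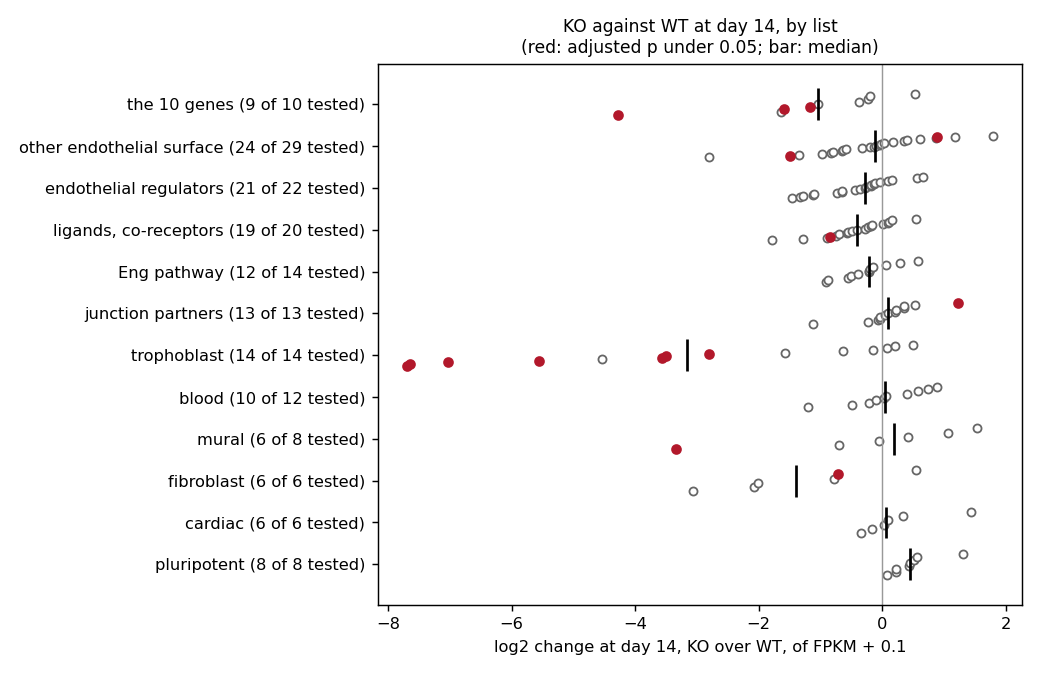
Log2 change of KO over WT at day 14 for the tested genes of each list, with a bar at the median of the list and filled red points for an adjusted p under 0.05. The 10 genes have a median of -1.04 and the trophoblast markers one of -3.16. The other endothelial surface genes have a median of -0.12 and run from -2.81 (*Adgrf5*) to 1.79 (*Gja5*).

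At day 0, *Pecam1* and *Tek* were lower in KO ESCs and none of the 10 genes was higher. *Cdh5*, *Kdr*, *Flt1* and *Emcn* were too low for the test, which leaves 6 of the 10. Of these 6, 2 were lower, where 10.4% of the 19238 tested genes were lower and 11.0% higher (2003 and 2115, or 606 and 1494 with TPM). The same 2 had all 3 KO libraries below all 3 WT libraries, as had 20.0% of tested genes, and none had them all above, as had 19.9%.

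*Pecam1* had 11.2, 11.4 and 11.6 FPKM in KO ESCs, against 13.7, 14.01 and 13.3 FPKM in WT ESCs. The libraries of each genotype were nearly equal, so that a small log2 change of -0.26 (SE 0.04) passed the test (limma adjusted p = 0.00579). *Tek* had 1.16, 1.68 and 1.47 FPKM in KO and 2.10, 2.68 and 2.35 FPKM in WT. KO ESCs averaged 60.4% of the WT level (log2 change -0.70, SE 0.16, limma adjusted p = 0.0238). The direction of *Tek* is thus negative at day 0 and positive, without passing the test, at day 14.

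The other genes at day 0 were not past the test. *Eng* had 5.53, 4.50 and 5.16 FPKM in KO and 4.95, 5.51 and 5.67 FPKM in WT (log2 change -0.09, 95% interval -0.31 to 0.14). *Esam* had 0.636, 0.659 and 0.612 FPKM in KO and 0.527, 0.647 and 0.246 FPKM in WT (log2 change 0.43, 95% interval -0.29 to 1.15). *Angpt2* and *Tie1* rested on 3 to 26 fragments per library in KO and 6 to 28 in WT, and their log2 changes were -0.21 and -0.22. For the untested *Cdh5*, 3 fragments in all KO libraries stood against 22 in all WT libraries, a ratio of 0.139 with a 95% counting interval of 0.0267 to 0.464. *Kdr* and *Flt1* had 30 and 39 fragments in all KO libraries and 39 and 50 in all WT libraries.

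The call of *Tek* at day 0 was lost without KO replicate 1 or 3 or WT replicate 2 or 3 (limma adjusted p up to 0.0791), while *Pecam1* passed in each fit that left 1 library out. Neither gene passed when FPKM was rescaled to a fixed sum per library or when all 4 groups were fitted together.

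In ESCs, as over all genes, a larger share of the surrounding lists passed the test. Of 13 junction partners 3 were higher and 4 lower, led by *Jam2* with 55.4 FPKM in KO and 11.8 FPKM in WT (log2 change 2.23). Of 13 ligands and co-receptors tested 4 were higher and 3 lower, among them *Vegfc* (8.68 FPKM in KO, against 5.29 FPKM in WT) and *Efnb2* (0.152 FPKM in KO, against 0.983 FPKM in WT). Of 12 genes in the pathway of *Eng* 6 were higher and 1 lower, and *Tgfbr2*, a receptor for transforming growth factor, averaged 0.519 FPKM in KO and 0.144 FPKM in WT.

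Of the 10 genes, 4 were higher at day 14 than at day 0 in KO and 5 in WT. In KO cells *Flt1*, *Cdh5*, *Kdr* and *Esam* were higher at day 14 than at day 0 and none was lower, where 33.5% of 20347 tested genes were higher and 29.8% lower (6815 and 6066, or 5702 and 7583 with quantile scaling). In WT cells *Cdh5*, *Flt1*, *Esam*, *Kdr* and *Angpt2* were higher and *Tek* was lower, where 29.0% of 20326 tested genes were higher and 26.4% lower (5903 and 5370, or 6552 and 3422 with TPM and 4889 and 6696 with quantile scaling). The same genes were the ones whose libraries of the 2 days did not overlap in that direction, where 35.7% of tested genes lay all above in KO, and where 33.0% lay all above and 31.2% all below in WT. In both genotypes *Cdh5*, *Kdr* and *Flt1* reached the level for the test only through their day 14 libraries, so their calls are descriptions and their number is no support. *Emcn* was not tested in either genotype.

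*Flt1* had a log2 change in KO that was the largest with 0.1 FPKM added, though not with 0.01 FPKM added, where that of *Cdh5* was larger (5.34, against 4.82 for *Flt1*). It had 1.82 FPKM at day 14 and 0.0549 FPKM at day 0, a log2 change of 3.63 (SE 0.19, limma adjusted p = 6.98e-06). In WT it had 4.23 FPKM at day 14 and 0.0707 FPKM at day 0, a log2 change of 4.68 (SE 0.24, limma adjusted p = 1.57e-05). The receptor was thus almost silent in ESCs of both genotypes and present in both after differentiation.

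*Cdh5* had the largest change in WT, 21.0 FPKM at day 14 and 0.0992 FPKM at day 0 (log2 change 6.50, SE 0.49, limma adjusted p = 6.65e-05). In KO it had 0.850 FPKM at day 14 and 0.0136 FPKM at day 0 (log2 change 3.04, SE 0.27, limma adjusted p = 7.66e-05). The KO baseline is only 3 fragments over the 3 libraries, against 205 at day 14, a ratio of 62.9 with a 95% counting interval of 21.2 to 308. The log2 change understates a rise from so low a level, because 0.1 FPKM is added to each value.

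*Kdr* had a log2 change of 1.43 in KO (0.339 FPKM at day 14 and 0.0631 FPKM at day 0) and of 2.31 in WT (0.824 FPKM at day 14 and 0.0821 FPKM at day 0). *Esam* had a log2 change of 0.85 in KO (limma adjusted p = 0.00441) and of 2.92 in WT (limma adjusted p = 0.00146). These junction and receptor genes rose in both genotypes. *Angpt2* averaged 0.302 FPKM at day 14 and 0.272 FPKM at day 0 in KO (log2 change 0.25, limma adjusted p = 0.669), and 1.10 FPKM at day 14 and 0.306 FPKM at day 0 in WT (log2 change 1.62, limma adjusted p = 0.00705).

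*Tek* went down in WT, with 1.16 FPKM at day 14 and 2.38 FPKM at day 0 (48.9% of the day 0 mean, SE of the log2 change 0.23, limma adjusted p = 0.00934). In KO it averaged 1.68 FPKM at day 14 and 1.43 FPKM at day 0, and the log2 change of 0.22 (95% interval -0.16 to 0.61) did not pass the test. *Pecam1* and *Eng* did not pass it in either genotype, with log2 changes of -0.07 and -0.01 in KO and -0.10 and 0.28 in WT. *Emcn* had 15 fragments at day 14 in KO and 44 in WT against 0 at day 0, which is at least 4.60-fold higher in KO and at least 14.2-fold higher in WT when 3 fragments over the day 0 group are taken as the limit of a count of 0.

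**Figure D5:**
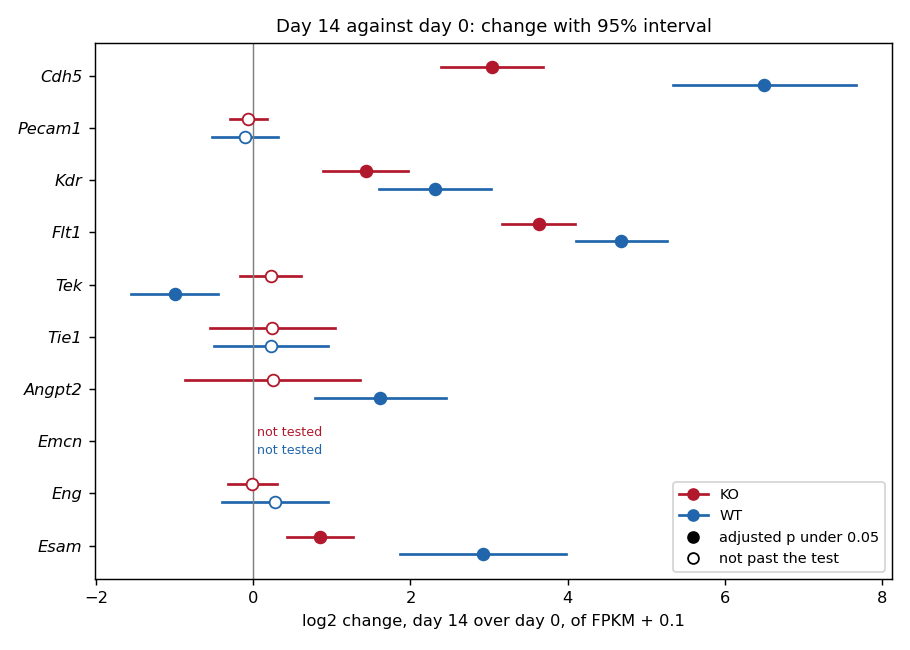
Log2 change of day 14 over day 0 for each of the 10 genes in KO and in WT, with 95% intervals from limma; filled points had an adjusted p under 0.05. *Cdh5* has 3.04 in KO and 6.50 in WT, and *Tek* is the only filled point below 0, in WT.

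Among the surrounding genes, *Nrp1* rose to 2.45 FPKM in KO and 4.45 FPKM in WT at day 14, against 0.0233 and 0.0621 FPKM at day 0, and *Vegfa* to 32.9 FPKM in KO and 31.6 FPKM in WT, against 12.4 and 10.1 FPKM. Of 23 other endothelial surface genes tested in KO, 10 were higher and 5 lower at day 14, and of 22 in WT, 13 were higher and 5 lower. Endothelial transcription factors were split as well, with 12 higher and 8 lower of 21 in KO and 13 higher and 3 lower of 22 in WT. *Etv2*, the early regulator of the endothelial lineage, was among those lower at day 14 in both, at 0.612 FPKM in KO and 0.720 FPKM in WT against 1.52 and 1.37 FPKM at day 0. Beside these counts, 33.5% of all genes tested in KO were higher and 29.8% lower, and 29.0% and 26.4% in WT. *Nrp1* and some of the higher listed genes reached the level for the test only through their day 14 libraries. Examples are *Cav1* and *Gja5* of the surface list and *Nr2f2* and *Mef2c* of the factors. The counts of higher genes are therefore descriptions and no support.

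Whether the KO effect itself differed between the days was tested as an interaction on all 12 libraries. It was more negative at day 14 than at day 0 for *Cdh5* (difference of log2 changes -3.46, SE 0.60, limma adjusted p = 0.00740) and *Esam* (-2.07, SE 0.51, limma adjusted p = 0.0346), and more positive for *Tek* (1.22, SE 0.28, limma adjusted p = 0.0279). Over all 22913 genes tested, 2.91% had a more negative and 4.22% a more positive effect (667 and 966, or 848 and 286 with TPM). *Flt1* (-1.05, limma adjusted p = 0.0553), *Angpt2* (-1.37, limma adjusted p = 0.218) and *Kdr* (-0.88, limma adjusted p = 0.177) were negative without passing the test. *Pecam1*, *Tie1* and *Eng* had differences of 0.04, 0.02 and -0.29. The interaction and the comparisons above share their libraries, so they are not separate evidence.

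*Cdh5* was below the level for the test at day 0 and entered the interaction only through its day 14 libraries, so its call is a description and no support. It passed in each of the 12 fits that left 1 library out, but depended on how low values were treated: the difference was -2.03 with a pseudocount of 0.01 (limma adjusted p = 0.168) and -1.89 with limma-voom on fragment counts (adjusted p = 0.733). *Tek* passed in 4 and *Esam* in 2 of these 12 fits, both of them without WT replicate 3 of day 14 (1.04 for *Tek* and -2.48 for *Esam*).

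For each of the 10 genes, the genes most alike over the 12 libraries were found among the 14110 genes with at least 1 FPKM in 3 or more libraries, as those with the smallest root mean square distance of mean-centred log2(FPKM + 0.1). For *Cdh5* these were *Fnd3c2* (distance 0.596), *Krt5* (0.632) and the placental lactogen gene *Prl3b1* (0.655), and *Prl3b1* averaged 0.459 FPKM in KO, against 14.4 FPKM in WT at day 14. For *Flt1* they were *Lhfpl2* (0.234), *Adgra2* (0.271) and *Lcp1* (0.272), and for *Esam* *Rgs2* (0.273), *Arhgap18* (0.386) and *Sorcs2* (0.388). For *Angpt2* they were *Rtn4rl2* (0.347), *Jag1* (0.422) and *Plxnd1* (0.459). *Jag1*, a Notch ligand, and *Plxnd1* also belong to the vessel lists above.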

How the data were processed

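Poly(A) RNA of 12 libraries was analysed, and groups and replicate numbers came from the sample titles. The authors deposited FPKM values, 1 table of 55471 genes for each library, and these were the starting point. Per the submitters' processing notes the tools were HISAT2 2.0.5 and featureCounts 1.5.0-p3 on mm10, and DESeq2, whose version, like the annotation release and strand setting, is not given in the sources used here. Fragment counts were recovered from FPKM and gene length, whole within 0.001 in 100% of genes. The authors' divisor was 0.998 to 1.10 times the assigned fragments, so FPKM holds a library correction that is not stated. Depth was 18219533 to 18824822 assigned fragments in KO and 16638790 to 19226488 in WT at day 14, and 16874970 to 17485712 in KO and 16984886 to 18303183 in WT at day 0. Counting intervals cover counting error only.

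Changes were computed with limma 3.58.1 (trend) in R 4.3.3 on log2(FPKM + 0.1). A gene entered a fit if 3 or more of its libraries reached 0.1 FPKM, and the scripts were tested on simulated data. A fold change on this scale understates that of low genes. Benjamini-Hochberg adjustment covered every gene of a fit, and a gene was called at an adjusted p under 0.05. Exonic overlap was checked in the annotation: *Eng* shares 61 bases (1.51%) with *Fpgs* on the opposite strand, and the others share none.

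Named genes were the 10, *Snap29* and *Atrx*, and for *Cdh5*, *Flt1*, *Esam* and *Angpt2* the 3 most alike. From 11 companion lists (152 genes, all matched), genes were named from the 3 with the smallest adjusted p at day 14, the 3 most abundant and those a sentence turns on. Not every such gene is named, and none of the cardiac list is. The 10 genes and the lists were chosen with earlier results of these data known. Alternatives were pseudocounts of 1 and 0.01, a minimum of 1 FPKM or none, TPM, median ratio and quantile scaling, 1 fit of all 4 groups, library weights, a replicate block, voom on fragments and leaving out 1 library. No 2 libraries among 66 pairs were identical.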

Additional observations from a re-analysis of the deposited data

Results flagged for a closer look

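The difference of the KO effect between the days passed its test for *Esam*, *Tek* and *Cdh5*, the last only through its day 14 libraries. For *Cdh5* the log2 change of KO over WT was lower at day 14 than at day 0 by a difference of -3.46 (limma adjusted p = 0.00740), and all 3 KO libraries lay below all 3 WT libraries at day 14. *Cdh5* was too low to be tested at day 0 (0.0136 FPKM in KO ESCs, against 0.0992 FPKM in WT ESCs). The difference was -2.03 with a pseudocount of 0.01 (limma adjusted p = 0.168) and -1.89 with voom (adjusted p = 0.733), so it is a description. For *Esam* the difference was -2.07 (limma adjusted p = 0.0346), with all 3 KO libraries below WT at day 14. For *Tek* it was 1.22 (limma adjusted p = 0.0279), with all 3 KO libraries above WT at day 14 and below WT at day 0.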

How the results depend on the processing

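The count of the 10 genes lower in KO at day 14, 3, was 0 to 5 when 1 library was left out, 5 with all 4 groups in 1 fit and 6 with library weights. The count over all genes, 181, was 28 to 1025, 1058 and 2531 in the same fits. Of the 10 genes, 2 were lower with no filter, with quantile scaling (limma adjusted p of *Angpt2* 0.0968 and 0.0550) and with a minimum of 1 FPKM, where *Angpt2* was not tested. Over all genes, 88, 162 and 174 were lower with these settings. At day 0 the count of 2 was 1 to 2 when 1 library was left out, and 0 with TPM scaling and with all 4 groups in 1 fit. The count over all genes, 2003, was 1294 to 1832, 606 and 1062 in the same fits. With a minimum of 1 FPKM the genes higher at day 14 numbered 2 in KO and 3 in WT, since fewer genes were tested. Of the interactions, 2 lower and 1 higher, the lower count was 1 to 3 and the higher count 0 to 1 without 1 library. The lower count was 1 with a pseudocount of 0.01 or no filter, 5 with library weights and 0 with voom, and the higher count was 0 with TPM scaling. Over all genes the lower count, 667, was 598, 473, 2711 and 830 in these fits, and the higher count, 966, was 286 with TPM scaling. The cause was not tested.

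Replicate numbers did not pair the libraries: same-numbered deviations correlated at -0.278 to 0.0297. With the number as a replicate block 0 of the 10 genes were lower at day 14, where 11 of all genes were lower. The higher interaction count was 0, where 544 of all genes were higher. No other count of the 10 genes changed.

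Only changes that had not passed the test reversed. TPM scaling gave 0.026 for *Eng* at day 0, 0.11 for *Pecam1* over days in WT, and -0.22 for *Pecam1* and -0.14 for *Tie1* in the interaction. Quantile scaling gave, over days, -0.17 for *Tie1* in WT and -0.072, -0.23 and -0.097 for *Tek*, *Tie1* and *Angpt2* in KO, and in the interaction -0.040 for *Pecam1* and -0.012 for *Tie1*. Library weights gave, over days, 0.16 for *Pecam1* in WT and -0.14 and 0.066 for *Angpt2* and *Eng* in KO, and -0.22 for *Pecam1* in the interaction. Voom gave, over days, 0.0085 for *Pecam1* in WT and 0.0029 for *Eng* in KO, and -0.063 for *Pecam1* in the interaction, where a pseudocount of 1 gave -0.000981 for *Tie1*. TPM scaling moved the median of all genes by -0.14 at day 14, 0.11 at day 0, 0.21 over days in WT and -0.24 in the interaction, and quantile scaling by -0.21 over days in both genotypes.

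Without 1 library the ranges that crossed 0 were, for KO over WT, -0.40 to 0.018 for *Tie1* at day 14 and -0.54 to 0.30 for *Angpt2* at day 0. Over days they were -0.26 to 0.10 for *Pecam1* and -0.011 to 0.59 for *Eng* in WT, and -0.17 to 0.018, -0.11 to 0.093 and -0.27 to 0.54 for *Pecam1*, *Eng* and *Angpt2* in KO. In the interaction they were -0.17 to 0.19 for *Pecam1*, -0.18 to 0.24 for *Tie1* and -0.60 to 0.00073 for *Eng*. Over all alternatives the genes lower and higher in KO numbered 11 to 2531 and 2 to 3517 at day 14 and 606 to 2345 and 1161 to 3017 at day 0, those lower at day 14 in WT 3422 to 6812, and the lower and higher interactions 352 to 2711 and 286 to 3261. Voom called 310 lower and 227 higher at day 14. Genes near 0.1 FPKM rest on a few fragments, which limits *Tie1* and *Emcn* throughout.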

Other observations

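Of 8 genes of the mural list, 4 had a KO effect that was more positive at day 14 than at day 0, and 2 a more negative one. Of all 22913 genes tested, 4.22% had a more positive and 2.91% a more negative effect (966 and 667, or 286 and 848 with TPM). *Acta2*, smooth muscle actin, averaged 206 FPKM in KO and 79.0 FPKM in WT at day 14 (log2 change 1.53, limma adjusted p = 0.106) and at day 0 it had 0.631 FPKM in KO, against 3.26 FPKM in WT (log2 change -2.20, limma adjusted p = 0.000135), a difference of 3.73 (limma adjusted p = 0.00133). *Cnn1* had a log2 change of 0.42 at day 14 and -1.56 at day 0 (difference 1.98), and *Tagln* (2.05) and *Notch3* (1.12) also passed upward. *Tagln* had log2 changes of 1.07 at day 14 and -0.98 at day 0, and *Notch3* of -0.05 and -1.17. None of these 3 passed the test at day 14. *Pdgfrb* (-1.31) and *Rgs5* (-2.93) passed downward, and *Myh11*, a smooth muscle myosin, did not pass (0.30, limma adjusted p = 0.722). Of 22 endothelial regulators tested, *Lmo2* (-1.49, limma adjusted p = 0.0187) and *Gata2* (-1.17, limma adjusted p = 0.0199) were more negative. *Foxo1* (0.68, limma adjusted p = 0.0228) was more positive. Of 24 other endothelial surface genes, 5 were more negative and 0 more positive, where 2.91% and 4.22% of all tested genes were.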
